A study of Homo sapiens with 7 samples.

Results

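The HOX genes encode homeodomain transcription factors and lie in 4 clusters, HOXA, HOXB, HOXC and HOXD. Members were the 38 HOX genes of a fixed list, found through the gene names of the array's non-control probes, out of 32815 gene names on the array. They were read by 42 probes on 78 spots of every array. The arrays compared ACHN-EV cells, the human renal cell adenocarcinoma line ACHN infected with an empty pBabe-hygro retrovirus (EV, 4 arrays), with ACHN-HOTAIR cells, infected with the same vector carrying human HOTAIR cDNA (HOTAIR, 3 arrays). Both groups were selected with hygromycin, and no clone was stated to have been isolated. Neither the labels nor the methods say whether the samples of a group were separate infections or cultures, so p-values measure only the spread between these samples. Total RNA was labelled with Cy3 and hybridised to 1-colour Agilent arrays, 1 sample per array.

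Within a cluster the HOX genes are transcribed from the same strand and are numbered by paralogue group, from group 1 at the 3′ end to group 13 at the 5′ end. In the embryo, genes near the 3′ end are used in anterior structures and genes near the 5′ end in posterior and distal ones, and adult cells often keep part of the code of the region they came from. The group 11 genes are needed for the first outgrowth of the metanephric kidney. HOTAIR is a long noncoding RNA transcribed antisense to the HOXC genes, from the stretch between HOXC12 and HOXC11, and it is best known for work on Polycomb repression of the HOXD cluster. The arrays therefore address which HOX genes ACHN cells use and whether that set differs when HOTAIR is overexpressed.

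The homeobox, the part that encodes the DNA-binding homeodomain, is alike between HOX genes, and the probes that read it are shown for genes at the edges of the detected code. The capitals mark codons of the homeodomain, in the recognition helix that contacts DNA for HOXB2, HOXC10 and HOXC12 and at the start of helix 2 for HOXC5 and HOXD12. HOXB2 and HOXC10 were detected on every array, HOXC5 on most, HOXD12 on 1 array and HOXC12 on none.
HOXB2, chr17:46620897-46620956 (hg19, minus strand): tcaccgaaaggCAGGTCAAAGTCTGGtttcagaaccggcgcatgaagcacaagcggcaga
HOXC10, chr12:54383100-54383159 (hg19, plus strand): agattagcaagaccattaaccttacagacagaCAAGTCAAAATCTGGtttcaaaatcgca
HOXC12, chr12:54350226-54350285 (hg19, plus strand): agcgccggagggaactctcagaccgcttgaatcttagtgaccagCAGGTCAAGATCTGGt
HOXC5, chr12:54428108-54428167 (hg19, plus strand): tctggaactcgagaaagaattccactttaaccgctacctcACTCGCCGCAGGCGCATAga
HOXD12, chr2:176965341-176965400 (hg19, plus strand): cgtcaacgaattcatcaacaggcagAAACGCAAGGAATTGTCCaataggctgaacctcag
A homeodomain stretch of this kind was found in 8 of the 42 member probes. Only a few fixed amino acid spellings of these stretches were searched for, so other probes may also read the homeobox. Aligned at the recognition helix, the HOXB2 and HOXC10 probes above had 74.4% identical bases over an overlap of 39. Over all 857 pairs of probes from different HOX genes, the longest identical run was 11 bases.

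On hg19 the probes of HOXA spanned 96.4 kb of chromosome 7 (27140350 to 27236733, minus strand) and those of HOXB 194.3 kb of chromosome 17 (46607916 to 46802203, minus strand). The HOXC probes spanned 109.8 kb of chromosome 12 (54340034 to 54449814, plus strand) and the HOXD probes 94.8 kb of chromosome 2 (176960600 to 177055431, plus strand). In each cluster the order of the probes along the chromosome followed the paralogue groups.

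Signals below are log2 intensities relative to the 75th percentile of the array, which lay between 523 and 649 intensity units on the EV arrays and between 552 and 640 on the HOTAIR arrays. Between 48.7% and 52.1% of all probes were well above background per array, by the scanner software's call. The 7 arrays shared 1 slide and 1 scan, but row 1 of the slide held the EV samples and row 2 the HOTAIR samples, and the effects of row and group cannot be told apart. EV 2 stood apart from the other arrays on the first principal component of the tested probes (51.8% of the variance), with a score of 74.0 against -18.1 to -8.50 on the other EV arrays, and HOTAIR 3 lay on its side with 21.1. EV 2 was the EV array farthest from the group median for 15 of the 36 tested HOX probes (41.7%) and for 50.9% of all tested probes. Of the renal epithelial markers, 11 of 13 genes were well above background on all arrays, among them PAX8 and LHX1, kidney lineage transcription factors, while CA9 and CDH6 were on none. THY1 was the only one of 8 fibroblast markers tested, none of 6 endothelial markers passed the filter on dim probes, and CD68 and CD14 were the immune markers that did.

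The HOTAIR probe (chromosome 12, 54356661 to 54356720, minus strand) was first used to check the labels. It gave -6.29, -6.97, -6.42 and -7.07 on EV 1 to EV 4 and -3.12, -3.24 and -2.58 on HOTAIR 1 to HOTAIR 3. It reached the background call on 0 of 4 EV arrays and 3 of 3 HOTAIR arrays. The log2 difference was 3.71 (limma adjusted p = 0.00162), with EV signals that did not reach the background call. For a second estimate, each EV signal was replaced by the lowest signal of a detected probe on that array where this was higher. The EV mean was then -6.20, and the HOTAIR signal was 9.32-fold higher in ACHN-HOTAIR cells. This value is not a lower limit, since probes without a call can read higher. A PAX2 probe called on no EV array had an EV mean of -5.64. The 95% interval of the log2 difference from limma ran from 3.13 to 4.29. The 9.32-fold estimate was not tested. The probe does not tell endogenous from transduced HOTAIR.

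ACHN-EV cells had a broad HOX code. Of the 38 HOX genes, 32 were well above background on all 4 EV arrays, and the same 32 were on all 7 arrays, against 45.8% of all probes on the EV arrays and 45.2% on all arrays. By cluster these were 10 of 10 HOXA genes, 9 of 10 HOXB genes, 6 of 9 HOXC genes and 7 of 9 HOXD genes. By position they were 6 of the 7 genes of groups 1 to 3, 13 of the 15 genes of groups 4 to 8 and 13 of the 16 genes of groups 9 to 13. Every member of groups 2, 3, 6, 7, 8, 9, 10 and 13 was detected. Both ends of the clusters were therefore read, from HOXD1 to HOXA13, HOXB13, HOXC13 and HOXD13.

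**Figure D1:**
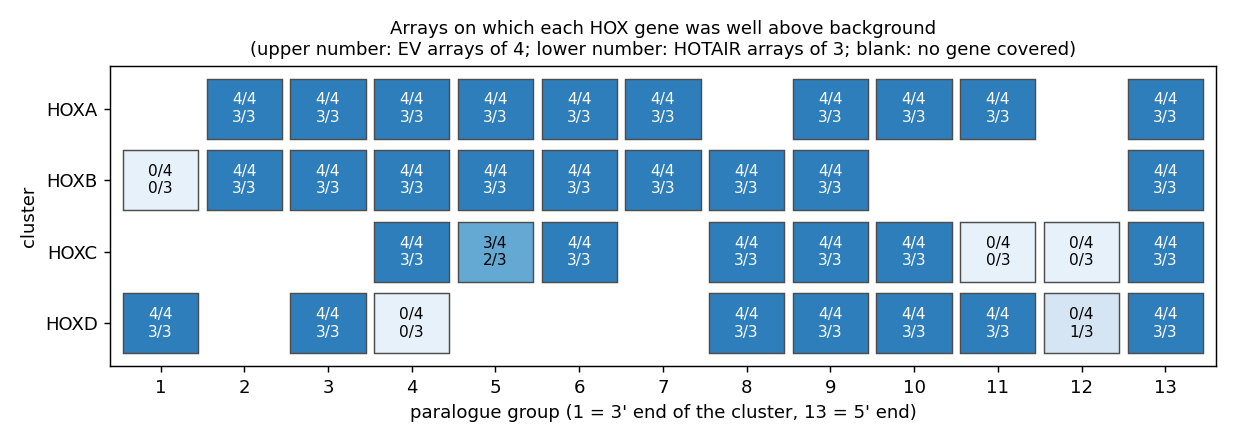
Detection of the 38 HOX genes by cluster (rows) and paralogue group (columns, 1 to 13). Each cell gives the number of EV arrays of 4 and of HOTAIR arrays of 3 on which a probe of the gene was well above background. 32 cells are full, and the pale cells are HOXB1, HOXC5, HOXC11, HOXC12, HOXD4 and HOXD12.

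Gaps in the code fell on 6 genes. HOXB1, which marks a segment of the embryonic hindbrain, had signals from -7.63 to -7.06 on the EV arrays and from -7.63 to -7.40 on the HOTAIR arrays. HOXD4 lay between -6.72 and -5.73 on the EV arrays and between -6.45 and -5.89 on the HOTAIR arrays. HOXC11 lay between -7.70 and -7.09 and between -7.67 and -7.44. None of these was well above background on any array, and neither was HOXC12, at -7.72 to -6.58 on the EV arrays and -7.65 to -7.41 on the HOTAIR arrays.

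HOXC11 and HOXC12 are the genes on either side of HOTAIR. The HOTAIR probe began 6.38 kb after the end of the HOXC12 probe and ended 12.5 kb before the start of the HOXC11 probe. Both genes stayed without a call on the arrays on which HOTAIR itself was detected. Further along the cluster, HOXC13 and HOXC10 were detected on all 7 arrays. Of the group 11 genes, HOXA11 and HOXD11 were detected on all arrays and HOXC11 on none. Paralogue group 12 was the only group with no gene detected on all arrays.

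HOXC5 and HOXD12 were called on some arrays only. HOXC5 was well above background on 3 of 4 EV arrays and 2 of 3 HOTAIR arrays, with -4.57, -7.34, -4.84 and -5.00 on EV 1 to EV 4 and -3.12, -4.27 and -5.47 on HOTAIR 1 to HOTAIR 3. EV 2 lay lowest, HOTAIR 1 highest, and the other arrays overlapped. HOXD12 was called on HOTAIR 3 alone, where its 2 spots read -3.75 and -7.38. On the other 6 arrays its averaged signal lay between -7.63 and -6.48, so the call on HOTAIR 3 rested on 1 spot. Neither gene was tested in the main comparison.

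**Figure D2:**
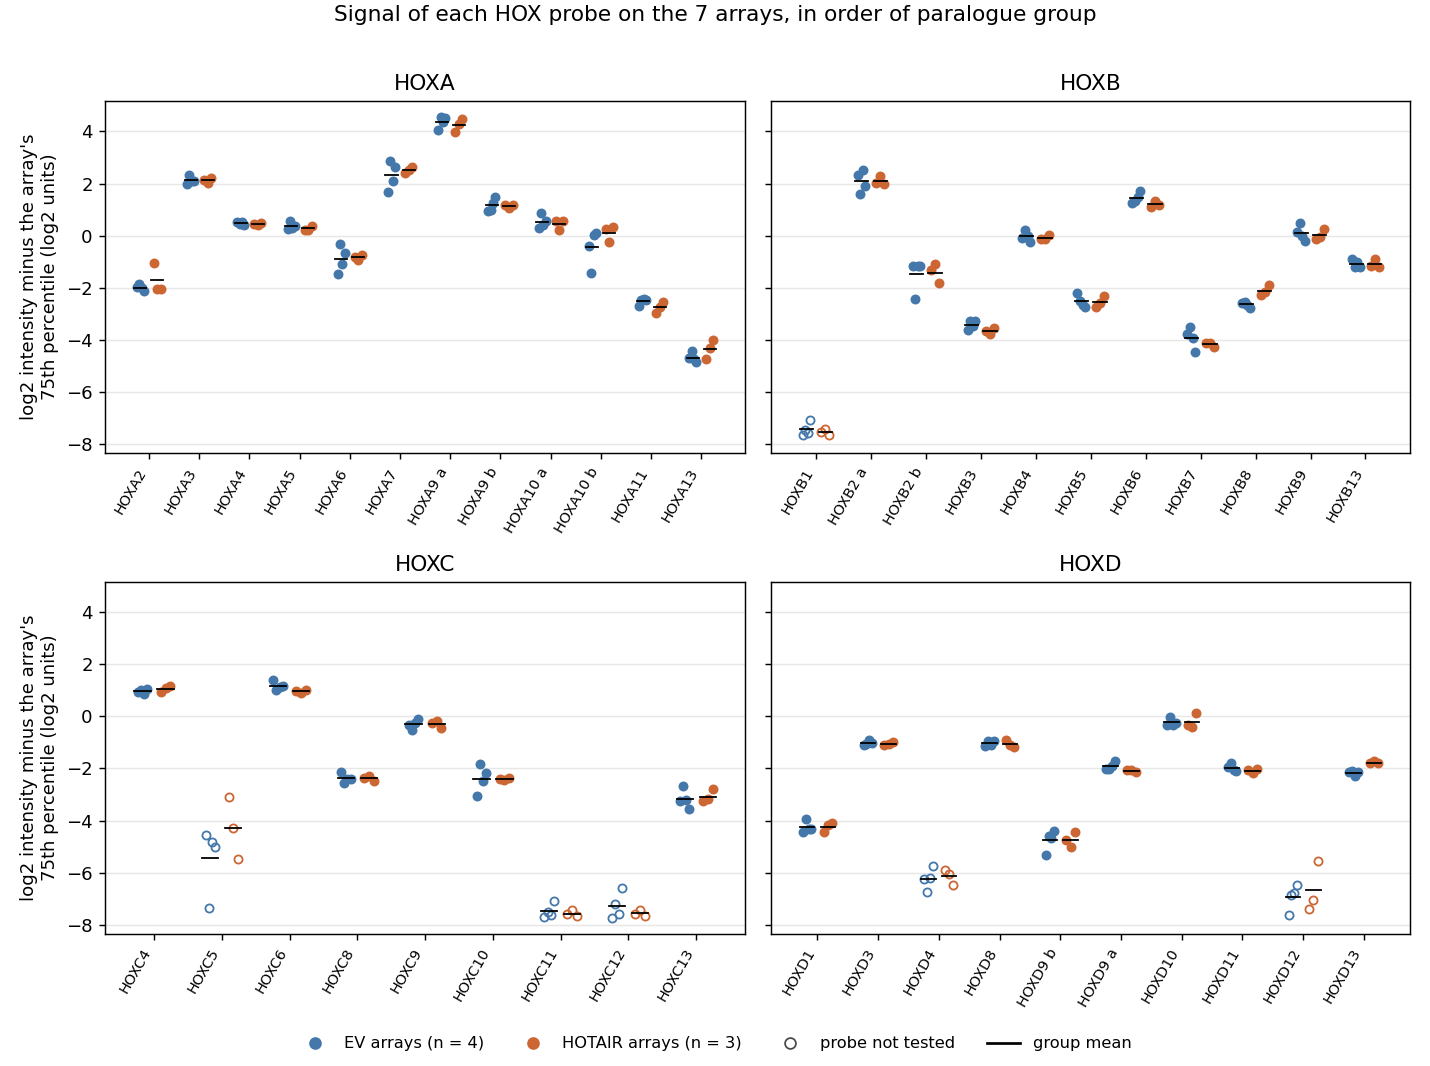
Signal of each of the 42 HOX probes in order of paralogue group, as log2 intensity relative to the array's 75th percentile (blue, EV arrays; orange, HOTAIR arrays; bars, group means; open circles, probes not tested; a and b, the brighter and dimmer probe of a gene). Levels of different probes cannot be set against each other, and within a probe the groups overlap for all but HOXB8, HOXD13 and HOXD9 among the tested probes.

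No shift of the code with HOTAIR passed the test. The comparison covered 36 probes of 32 HOX genes, each well above background on all 7 arrays, within a limma fit of all 20419 probes that passed the filter on dim signals. At an adjusted p under 0.05, 0 of the 36 HOX probes were called, against 0.167% of all tested probes (34). At an unadjusted p under 0.05 by limma, 2 of 36 were called, against 5.85% of all. The Mann-Whitney U test called 0, since its smallest possible two-sided p here is 0.0571, and limma with array weights called 2, HOXB8 and HOXD13. The arrays of the groups did not overlap for 3 HOX probes, against 7.7% of all tested probes, with 2 higher (4.2% of all) and 1 lower (3.5% of all) in ACHN-HOTAIR cells.

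The differences (HOTAIR minus EV, log2) ran from -0.25 to 0.53 over the 36 HOX probes. Their median was -0.016, beside 0.013 over all tested probes, and their median size was 0.084, beside 0.126. The 95% interval of the difference lay within 2-fold in both directions for 35 of the 36 HOX probes (97.2%), beside 87% of all tested probes, and within 1.5-fold for 25 (69.4%), beside 58.1%. The SD between EV arrays had a median of 0.181 over the HOX probes and 0.230 over all tested probes.

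**Figure D3:**
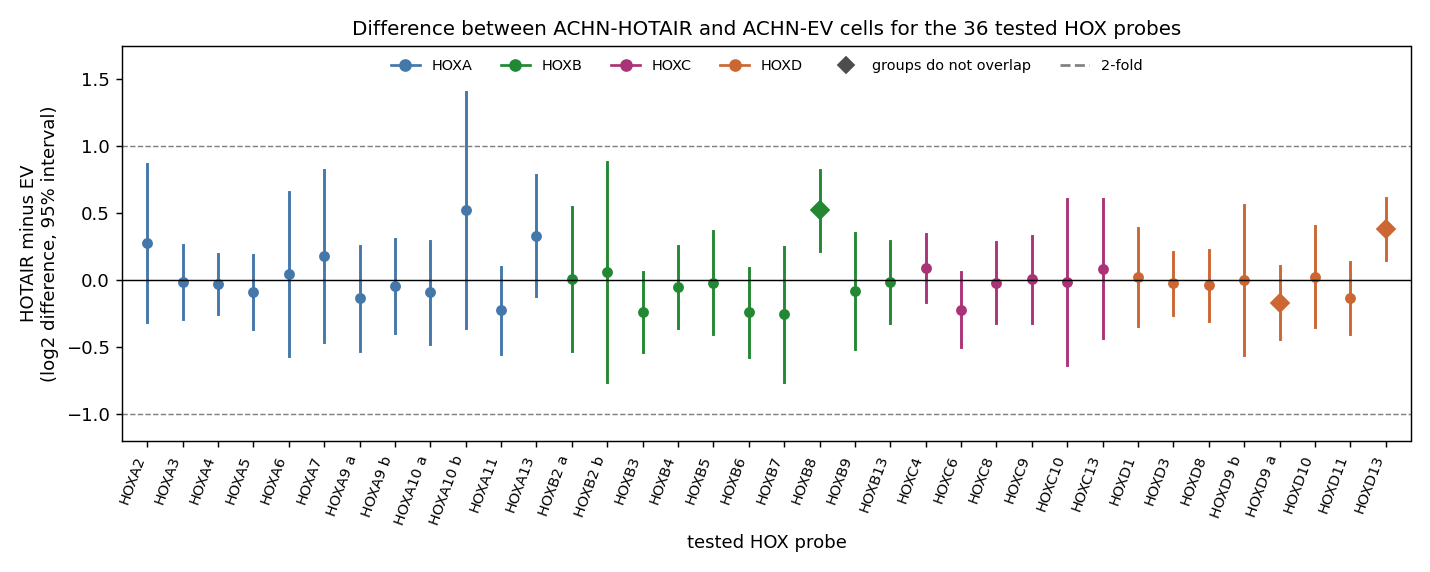
Difference between ACHN-HOTAIR and ACHN-EV cells for the 36 tested HOX probes (points, HOTAIR minus EV on the log2 scale; lines, 95% interval from limma; diamonds, probes whose groups do not overlap; dashed lines, 2-fold; a and b, the brighter and dimmer probe of a gene). The points run from -0.25 to 0.53, and only the interval of the dimmer HOXA10 probe crosses a 2-fold line.

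HOXD, the cluster HOTAIR is best known for, had a median difference of -0.010 over its 8 tested probes, 4 of them positive and 4 negative. HOXC, in which HOTAIR lies, had a median of -0.0035 over 6 probes, with 3 on each side of 0. The median was -0.020 over the 12 HOXA probes and -0.033 over the 10 HOXB probes. By position it was 0.011 over the 7 probes of groups 1 to 3, -0.026 over the 13 of groups 4 to 8 and -0.013 over the 16 of groups 9 to 13. The signs of the cluster medians were not stable. Without EV 2 they were 0.034 for HOXA and 0.018 for HOXD. The HOXC median was then 0.110, but over 7 probes, since HOXC5 passed the filter once EV 2 was left out. Over the same 6 HOXC probes it was 0.045 with normexp background correction and 0.031 without EV 1.

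HOXB8, known for holding myeloid progenitors in an immature state, had the largest difference among the probes that represent a gene. It gave -2.56, -2.53, -2.67 and -2.77 on EV 1 to EV 4 and -2.27, -2.16 and -1.90 on HOTAIR 1 to HOTAIR 3. All HOTAIR arrays lay above all EV arrays. The difference was 0.52 ± 0.13 (SE, 4 against 3 arrays), with a limma adjusted p of 0.353 and an exact two-sided permutation p of 0.0286, the smallest that 35 splits of the arrays can give. The groups did not overlap under normexp, quantile or detected-probe scaling, or with the deposited value table. The other alternatives reuse the same signals or leave arrays out, and neither can make separated groups overlap. Over the 18 alternatives the difference ranged from 0.28, with normexp background correction, to 0.60. With array weights limma's adjusted p was 0.0386. The gene has 1 spot per array. On each array the 40 probes within 4 rows and columns of it deviated by a median of -0.083 to 0.093 from their means on the other arrays.

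HOXD13, which patterns the digits and the genital tubercle, gave -2.13, -2.09, -2.28 and -2.13 on EV 1 to EV 4 and -1.81, -1.72 and -1.79 on HOTAIR 1 to HOTAIR 3. Again all HOTAIR arrays lay above all EV arrays. The difference was 0.38 ± 0.10 (SE, limma adjusted p = 0.426), with an exact two-sided permutation p of 0.0286. Both spots of the probe kept the groups apart, with differences of 0.31 and 0.45. The groups also stayed apart under normexp, quantile and detected-probe scaling, and with the deposited value table. Here too the other alternatives could not make them overlap. Over the 18 alternatives the differences ran from 0.23, with normexp background correction, to 0.47, with array weights (limma adjusted p = 0.0292).

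HOXD9 was the one HOX gene whose brighter probe lay lower on all HOTAIR arrays. It gave -2.02, -2.04, -1.92 and -1.71 on EV 1 to EV 4 and -2.07, -2.05 and -2.14 on HOTAIR 1 to HOTAIR 3. The gap between the groups, from -2.04 to -2.05, was narrow beside the EV SD of 0.147. The difference was -0.17 ± 0.12 (SE, limma adjusted p = 0.971), and it was -0.048 with normexp background correction and -0.098 without EV 4. The groups overlapped with normexp and with scaling by the 75th percentile of detected probes. They stayed apart with quantile scaling, with scaling by the median of detected probes and with the deposited value table. The other alternatives could not make them overlap. The other HOXD9 probe, 187 bases nearer the 5′ end, had a difference of 0.0017.

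**Figure D4:**
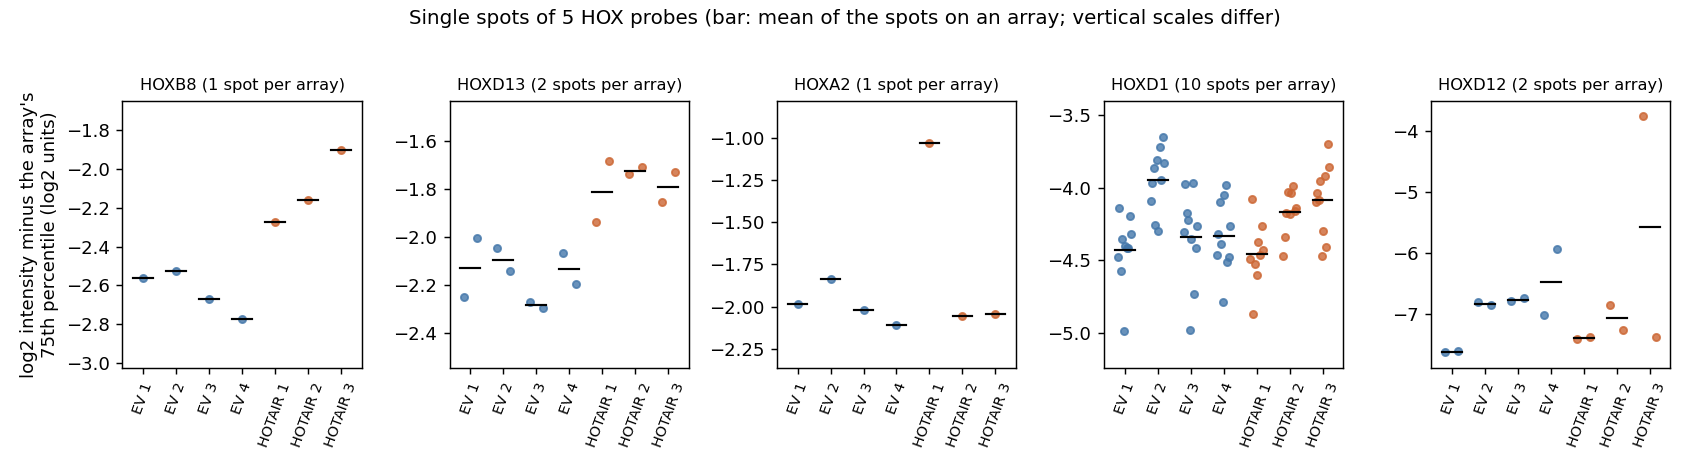
Single spots of the HOXB8, HOXD13, HOXA2, HOXD1 and HOXD12 probes on the 7 arrays (points, log2 intensity relative to the array's 75th percentile; bars, mean of the spots on an array; blue, EV; orange, HOTAIR; vertical scales differ). HOXB8 and HOXD13 keep the groups apart, the HOXA2 difference comes from HOTAIR 1 and the HOXD12 call from 1 of 2 spots on HOTAIR 3.

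In HOXA, the largest differences among the probes that represent a gene belonged to HOXA13 and HOXA2. HOXA13, needed for distal limbs and the urogenital tract, gave -4.69, -4.44, -4.73 and -4.86 on the EV arrays and -4.74, -4.30 and -4.00 on the HOTAIR arrays. HOTAIR 1 lay within the EV range and the other HOTAIR arrays above it, with a difference of 0.33 ± 0.19 (SE, limma adjusted p = 0.939) that was 0.071 with normexp background correction. It was 0.16 without HOTAIR 3 and 0.53 without HOTAIR 1, where the groups did not overlap. HOXA2, which specifies the second branchial arch, gave -1.99, -1.84, -2.02 and -2.11 on the EV arrays and -1.03, -2.06 and -2.05 on the HOTAIR arrays. HOTAIR 1 alone lay apart, on the gene's 1 spot, and the difference of 0.28 ± 0.25 (SE, limma adjusted p = 0.993) became -0.062 without it.

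HOXA10, a gene of the uterus and of haematopoiesis, has 2 probes whose differences had opposite signs. The brighter one gave 0.30, 0.85, 0.41 and 0.58 on the EV arrays and 0.56, 0.22 and 0.56 on the HOTAIR arrays, a difference of -0.090 ± 0.17 (SE, limma adjusted p = 0.993). The dimmer one, 1729 bases nearer the 5′ end, gave -0.40, -1.45, 0.040 and 0.12 on the EV arrays and 0.24, -0.26 and 0.33 on the HOTAIR arrays, a difference of 0.53 ± 0.38 (SE, limma adjusted p = 0.975). EV 2 was the highest EV array on the first probe and the lowest on the other. Relative to the EV mean, the probe nearer the 5′ end of the transcript read lower than the other on EV 2 by 1.34 for HOXA10, 0.48 for HOXB2 and 0.36 for HOXA9, while for HOXD9 it read higher by 0.26.

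The remaining 8 HOXA probes differed by -0.22, for HOXA11, to 0.18, for HOXA7. HOXA6, HOXA7 and HOXC10 were among the genes that varied most between the EV arrays. HOXA6 gave -1.47, -0.30, -1.08 and -0.67 on EV 1 to EV 4 and -0.82, -0.93 and -0.76 on HOTAIR 1 to HOTAIR 3. HOXA7 gave 1.69, 2.88, 2.11 and 2.62 on the EV arrays and 2.39, 2.51 and 2.62 on the HOTAIR arrays. HOXC10 gave -3.06, -1.83, -2.50 and -2.19 on the EV arrays and -2.40, -2.45 and -2.38 on the HOTAIR arrays. In all of these EV 1 was lowest, followed by EV 3, EV 4 and EV 2, and the HOTAIR arrays lay inside the EV range. Their EV SDs were 0.507, 0.533 and 0.519, beside HOTAIR SDs of 0.085, 0.111 and 0.037. The dimmer HOXA10 and HOXB2 probes had larger EV SDs, 0.720 and 0.640, beside HOTAIR SDs of 0.315 and 0.373. HOXA6, HOXA7 and HOXC10 were chosen after their values were seen, so these SDs cannot be read as a difference in spread between the groups.

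In HOXB, HOXB7, expressed in the ureteric bud of the embryonic kidney, followed HOXB8 in size. It gave -3.76, -3.52, -3.93 and -4.47 on the EV arrays and -4.13, -4.10 and -4.28 on the HOTAIR arrays. The HOTAIR arrays lay inside the EV range, with a difference of -0.25 ± 0.22 (SE, limma adjusted p = 0.993). It was -0.44 without EV 4, where the groups did not overlap, and -0.12 without EV 2. The remaining 8 HOXB probes differed by -0.24 to 0.062. HOXB13, the gene of the prostate and hindgut at the 5′ end of the cluster, had means of -1.07 ± 0.15 (SD, n = 4) and -1.08 ± 0.15 (SD, n = 3).

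In HOXC the pair with the largest differences was HOXC6 and HOXC4. HOXC6, a gene of thoracic identity, gave 1.40, 1.01, 1.14 and 1.15 on the EV arrays and 0.95, 0.90 and 1.02 on the HOTAIR arrays. EV 2 and HOTAIR 3 overlapped narrowly, and the difference was -0.22 ± 0.12 (SE, limma adjusted p = 0.936), or -0.14 without EV 1. HOXC4 gave 0.95, 1.02, 0.87 and 1.03 on the EV arrays and 0.92, 1.09 and 1.17 on the HOTAIR arrays, with overlapping groups and a difference of 0.094 ± 0.11 (SE, limma adjusted p = 0.993) that was 0.166 without HOTAIR 1, 0.062 without EV 3 and 0.038 without HOTAIR 3. HOXC13, a regulator of hair keratins and the member nearest HOXC12 on the far side of HOTAIR, differed by 0.088, and HOXC10 by -0.014.

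In HOXD, HOXD10 and HOXD11, which are often read as targets of HOTAIR, showed no difference beyond the spread. HOXD10 gave -0.34, -0.012, -0.34 and -0.24 on EV 1 to EV 4 and -0.32, -0.41 and 0.12 on HOTAIR 1 to HOTAIR 3, a difference of 0.029 with a 95% interval from -0.35 to 0.40. HOXD11 gave -1.96, -1.79, -2.05 and -2.09 on the EV arrays and -2.08, -2.19 and -2.04 on the HOTAIR arrays, a difference of -0.13 with an interval from -0.40 to 0.14. HOXD8 differed by -0.037 (interval -0.30 to 0.23) and HOXD3 by -0.022 (interval -0.26 to 0.22). HOXD1, at the 3′ end, has 10 spots per array, of which 9 were used on HOTAIR 1 and HOTAIR 2. The SD between its spots was 0.156 to 0.314 within an array, and the difference between the groups was 0.026 ± 0.16 (SE over arrays, from limma).

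**Figure D5:**
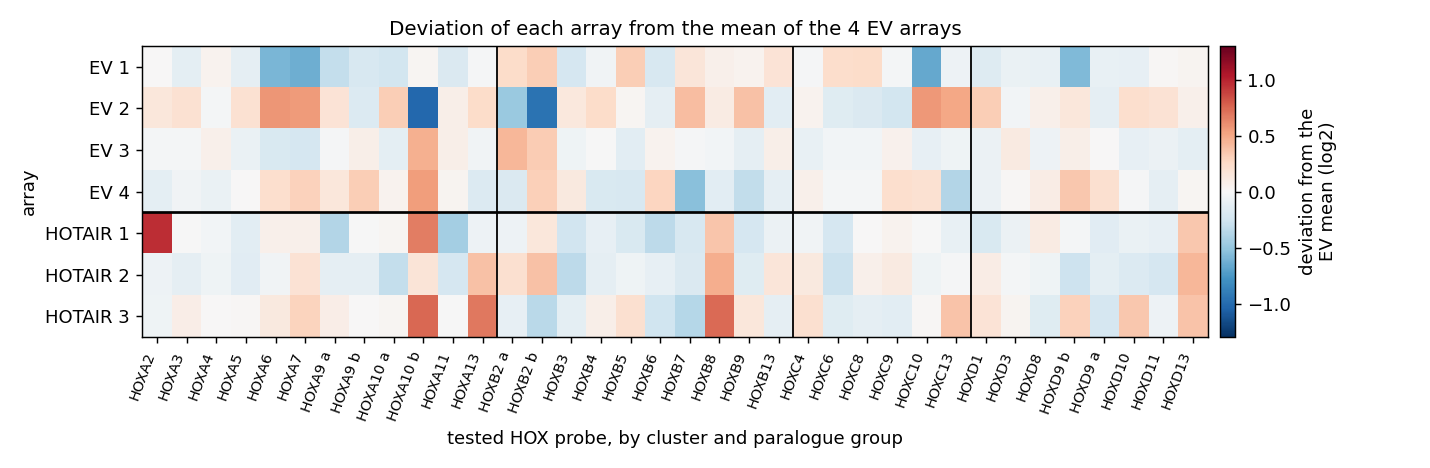
Deviation of each array (rows) from the mean of the 4 EV arrays for the 36 tested HOX probes (columns, by cluster and paralogue group; colour, log2 units, red above and blue below). HOXB8 and HOXD13 are red on all 3 HOTAIR arrays, HOXA2 on HOTAIR 1 alone, and the dimmer probes of HOXA10 and HOXB2 are blue on EV 2.

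HOX proteins bind DNA with TALE homeodomain cofactors of the PBX and MEIS/PREP families. Of 11 cofactor genes on the array 8 were tested, 0 were called by limma at an adjusted p under 0.05 (0 also at an unadjusted p under 0.05), and their median difference was -0.079. PBX3 was the one whose groups did not overlap, with a difference of -0.23 ± 0.14 (SE, limma adjusted p = 0.939). MEIS2 differed by -0.27 and PBX2 by 0.24, with overlapping groups.

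The regulators of HOX clusters, among them trithorax, Polycomb, retinoic acid and CDX factors, were on the array with 30 genes, of which 24 were tested and 0 called by their brightest probes (0 also at an unadjusted p under 0.05), with a median of 0.0096. Among these probes the largest differences were 0.23 for CBX2, a Polycomb subunit that reads methylated histone H3, 0.18 for RBBP5, a subunit of the trithorax-type methyltransferases, and 0.17 for RARA, a retinoic acid receptor. Dimmer probes of some regulators differed by more. An RBBP5 probe was higher on all HOTAIR arrays (0.37, limma adjusted p = 0.921), and a probe of MLL, a trithorax methyltransferase gene, differed by 0.44 with overlapping groups (limma unadjusted p = 0.0306 and adjusted p = 0.765). Of 20 genes next to the clusters 16 were tested and 0 called (0 also at an unadjusted p under 0.05), with a median of -0.011. HIBADH, on the far side of HOXA, lay lower on all HOTAIR arrays, with a difference of -0.20 (limma adjusted p = 0.926), and CALCOCO1 differed by -0.18 and SKAP1 by 0.15.

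Beside the HOX genes, 3 of the 11 tested renal epithelial markers had groups that did not overlap, against 7.7% of all tested probes. CA12, a carbonic anhydrase of the tumour cell surface, had a difference of 1.09 (limma adjusted p = 0.532). CDH16, the kidney-specific cadherin, had one of -0.62 (limma adjusted p = 0.531) and EPCAM, an epithelial adhesion protein, one of -0.23 (limma adjusted p = 0.881). None was called, and their part in the HOX values was not tested.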

How the data were processed

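Members and gene lists were chosen with earlier results of these data known. The authors scanned 7 arrays with Agilent Feature Extraction 10.7.3.1 (per the submitters' processing notes) and deposited its output, an intensity per spot with background subtracted and no scaling between arrays. The deposited value table holds the same intensities (all cells within 0.6%, column medians 18.6 to 28.3) and was an alternative. Coordinates are hg19, from the array annotation.

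In R 4.3.3 with limma 3.58.1, log2 processed intensity minus the 75th percentile of the 58717 non-control spots was used per array, outlier spots were left out and spots of a probe averaged. A probe was called well above background where at least 0.5 of its used spots were. Probes with this call throughout a group, EV or HOTAIR, were tested with lmFit and eBayes, Benjamini-Hochberg adjustment over all 20419 and a threshold of 0.05. limma was tested on simulated data. The number of arrays limits the precision. For a gene with several probes the brightest represents it. Homeodomain codons were found by translating the probes and searching for a few fixed amino acid spellings.

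Genes given per array are those past the adjusted p, with groups that do not overlap, the 2 of each cluster with the largest difference, those with probes of opposite sign or a call complete in 1 group only. Other HOX genes given by array, such as HOXC5, HOXD12, HOXD10, HOXD11, HOXA6, HOXA7 and HOXC10, were added after their values were seen. From the other lists the rule took genes called or not overlapping and the 3 largest differences, of which 1 is not reported here. Alternatives were normexp (offset 50), quantile and detected-probe scaling, 2 other filters, the value table, each array and EV 2 with HOTAIR 3 left out, the replicate block, trend and robust moderation, array weights, the Mann-Whitney test and the mean of a gene's probes. The rank product named in the methods was not used here.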

Additional observations from a re-analysis of the deposited data

Results flagged for a closer look

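Of 43 sets of 4 EV values tested for a single array far from the others, 4 stood out, where chance gives about 1 in 20 (2.15). In each the value given is the gap to the nearest array as a share of the range. For HOXA11 it was 0.833, with EV 1 at -2.71 and the other EV arrays between -2.49 and -2.44. For the dimmer HOXB2 probe, shown above with its recognition helix in capitals, it was 0.989, with EV 2 at -2.44 against -1.16 to -1.15. For HOXC5 it was 0.845, with EV 2 at -7.34. The first principal component gave 0.896, with EV 2 at 74.0. EV 2 was the array set apart in 3 of the 4.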

How the results depend on the processing

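The count of HOX probes past the adjusted p was 0 in limma under every alternative and with every array left out (0 to 0), except with array weights, which called 2 (HOXB8 0.49, adjusted p = 0.0386; HOXD13 0.47, adjusted p = 0.0292) and 324 of all probes in place of 34, with EV 2 weighted 0.199 and EV 3 3.45. Calls over all probes ranged from 0 to 324. With each array left out the HOX probes with groups that do not overlap numbered 3 to 8, beside 9.96% to 21.2% of all tested probes (8 of 37 and 21.2% without HOTAIR 3), and 8 of 37 without EV 2 and HOTAIR 3 together, beside 28.4%. The HOXC median was -0.022 to 0.110 with each array left out, 0.055 without EV 2 and HOTAIR 3, and 0.045 with normexp. Without EV 2, without HOTAIR 3 and without both it was over 7 probes, HOXC5 included. Where the 6 HOXC probes of the main fit were kept, leaving out an array gave -0.022 to 0.031. HOXA10 was -0.170 to 0.021 with each array left out, positive without EV 2 (0.016) and HOTAIR 2 (0.021), and 0.218 as the mean of its probes. HOXA2 was -0.062, without HOTAIR 1, to 0.450. The cause was not tested. Of 164 values of the named genes, 158 kept their direction and side of the threshold. The other filters and the trend and robust moderation leave the difference unchanged, so they could not alter its direction.

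The same-numbered arrays deviated with correlations of 0.386, -0.368 and -0.406, and EV 2 with HOTAIR 3 with 0.619. The labels do not say whether the numbers pair the samples, and these correlations cannot settle it. With the replicate block, 0 HOX probes and 0 of all probes were called and 4 of 36 HOX probes had groups that do not overlap, beside 14.9% of all. Detection in ACHN-EV cells was 32 genes and became 33 under all 3 other detection rules. For undetected genes a level below the background call cannot be told from none.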
